A study of Mus musculus with 2 samples.

Results

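Genes for 9 components of the basement membrane were followed through non-polyadenylated (NPA) RNA of mouse embryonic stem cells (ESCs) and of the neuronal progenitor cells (NPCs) derived from them. The 9 genes are *Col4a1*, *Col4a2*, *Lama1*, *Lamb1*, *Lamc1*, *Nid1*, *Nid2*, *Hspg2* and *Sparc*, of 37273 genes annotated in GENCODE release M1 on build mm9. They were chosen by name, from earlier results of these same libraries in which part of the group stood out, so the differences below describe the libraries and are not a test of the group. The study fractionated RNA of R1 male ESCs and of day 7 NPCs to ask how NPA transcription changes on differentiation, and sequenced 1 strand-specific library of each. It also measured the polyadenylated and NPA fractions of both cell types on tiling arrays in biological repeats, which are not used here. ESCs at passage 18 were grown with LIF on mitomycin C treated mouse embryonic fibroblasts. NPCs came from the same line after 4 days as embryoid bodies without LIF and replating on poly-L-ornithine and fibronectin in insulin, transferrin and selenium medium, and were collected on day 7. Fibronectin is itself a matrix protein, and the ESC cultures also held fibroblasts as feeders. The ESC library held 4271306 placed reads and the NPC library 4399729.

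A basement membrane is a thin sheet of matrix on which epithelia rest. Laminin, a trimer of an alpha, a beta and a gamma chain, forms one network of the sheet and type IV collagen, a trimer of alpha chains, forms another; nidogens and the heparan sulfate proteoglycan perlecan bridge them. In the early mouse embryo the parietal endoderm is a prolific maker of such matrix, laid down as Reichert's membrane, and the laminin chain trio and collagen IV chain pair measured here are its classical products, together with SPARC, a collagen-binding glycoprotein also called BM-40.

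With 1 library per cell type there was no replicate spread, and every ratio compares these libraries and not the cell types. Ratios are of reads scaled to the library totals, with an exact conditional binomial 95% interval; counts have an exact Poisson interval and shares an exact Clopper-Pearson interval. All of these cover counting error only, because reads amplified by PCR without molecular identifiers are not independent molecules. Levels between genes are compared as RPKM, reads per kb of exon per 1000000 placed reads, over all annotated exons of a gene joined. In RNA of whole cultures, a change in the number of cells of a type and a change in the RNA per cell cannot be told apart. The oligo(dT) step depletes polyadenylated mRNA without removing all of it, and the reads do not tell which molecules had a tail.

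The 9 genes together held 6420 exonic reads in ESCs, against 81251 in NPCs. That is 0.150% (0.147 to 0.154) of the ESC library and 1.85% (1.83 to 1.86) of the NPC library. The scaled sum was 12.3-fold (12.0 to 12.6) higher in NPCs. Of the 9 genes, 7 were more than 2-fold higher in NPCs, against 24.6% of the 14859 genes with at least 10 reads in both libraries together and 26.2% of the protein-coding ones. More than 4-fold higher were 6 of the 9, against 6.95% of all genes tested, and the same 6 were more than 8-fold higher, against 2.50%. With each start counted once, 4 of the 9 were more than 4-fold and 0 more than 8-fold higher. The shares of all genes given here are from all reads and do not apply to those counts. None of the 9 was more than 2-fold lower, against 12.8%. The median log2 ratio, with 1 read added in each library, was 3.54 for the 9 genes and 0.34 for all genes tested. Since earlier values of this contrast led to the choice of the genes, nothing is read from these counts beyond their size. The group was not uniform: *Nid2* and *Hspg2* had nearly the same level in both libraries.

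**Figure D1:**
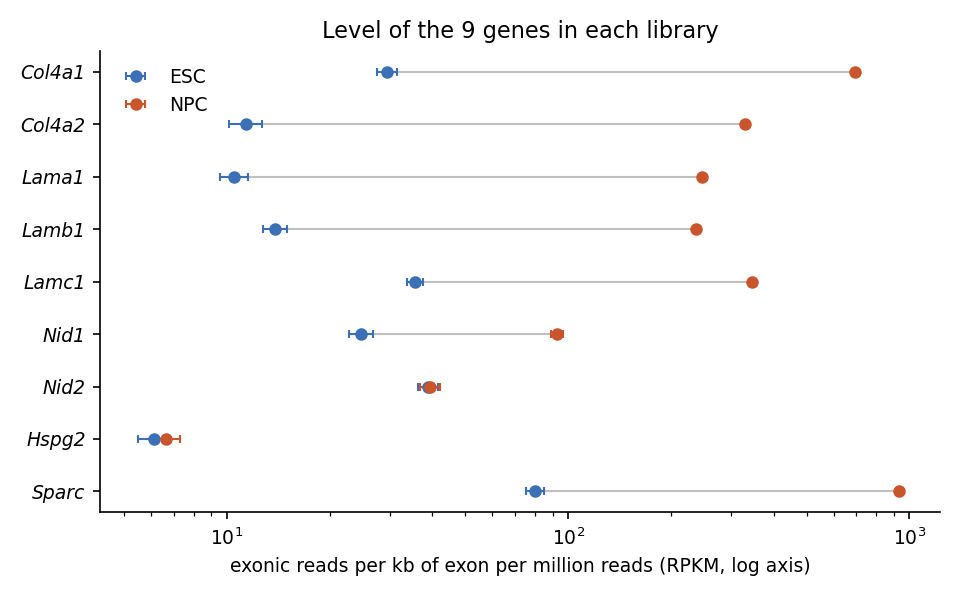
Exonic level of each gene in the ESC (blue) and NPC (orange) libraries, as RPKM on a log axis. Bars are exact Poisson 95% intervals and grey lines join the libraries; *Nid2* (38.9 and 39.5) and *Hspg2* (6.10 and 6.63) overlap, and the other 7 genes lie apart.

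The collagen IV chains had the highest ratio of the group at *Col4a2*. *Col4a1* (ENSMUSG00000031502.9, minus strand of chr8:11198423-11312826) and *Col4a2* (ENSMUSG00000031503.7, plus strand of chr8:11312805-11449287) encode the alpha-1 and alpha-2 chains that form the ubiquitous collagen IV trimer. *Col4a1* had 856 reads in ESCs and 20753 in NPCs, a 23.5-fold (22.0 to 25.2) difference, and its RPKM went from 29.4 to 692. *Col4a2* had 321 reads in ESCs and 9596 in NPCs, 29.0-fold (26.0 to 32.5) higher, with RPKM of 11.4 and 330. In order of RPKM among 22367 protein-coding genes, *Col4a1* stood at place 1093 in ESCs and 14 in NPCs, and *Col4a2* at 3080 and 59.

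The genes are transcribed away from each other from a shared start region, and by the annotation their first exons overlap by 22 bases at chr8:11312805-11312826 (mm9). The overlap is shown because only there could a read of either gene also lie on the other's exon. On the plus strand, with all bases of the overlap in capitals, it is printed on the next line.
*Col4a1* and *Col4a2* first exons: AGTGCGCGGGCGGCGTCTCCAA

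No read touched it on either strand in either library, a count that allows up to 3 reads. On the exons of *Col4a1* there were 0 reads of the opposite strand in both libraries and on those of *Col4a2* there were 1 in ESCs and 3 in NPCs, so the neighbours' counts were kept apart by strand.

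The laminin-111 chains were all higher in NPCs. *Lama1* (ENSMUSG00000032796.7, plus strand of chr17:68046605-68171985) encodes the alpha-1 chain, whose end carries the domains by which the trimer binds cell surface receptors. It had 427 reads in ESCs and 10346 in NPCs, 23.5-fold (21.4 to 26.0) higher, and RPKM of 10.5 and 247. *Lamb1* (ENSMUSG00000002900.8, plus strand of chr12:31950099-32014509), the beta-1 chain, had 585 reads in ESCs and 10367 in NPCs, 17.2-fold (15.8 to 18.7) higher, with RPKM of 13.8 and 238. Over its longest coding transcript alone, which is shorter than its joined exons, its RPKM was 23.6 and 405. *Lamc1* (ENSMUSG00000026478.8, minus strand of chr1:155066052-155179916), the gamma-1 chain and the partner common to most laminins, had 1256 reads in ESCs and 12622 in NPCs, 9.76-fold (9.21 to 10.3) higher, with RPKM of 35.5 and 347. The chain with the highest level in ESCs thus had the lowest ratio of the trio. Places by RPKM over joined exons were 3306 in ESCs and 87 in NPCs for *Lama1*, 2547 and 91 for *Lamb1*, and 869 and 55 for *Lamc1*.

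The nidogens parted. *Nid1* (ENSMUSG00000005397.7, plus strand of chr13:13529869-13604542) and *Nid2* (ENSMUSG00000021806.3, plus strand of chr14:20570479-20631009) encode related linkers that bind laminin and collagen IV. *Nid1* had 639 reads in ESCs and 2472 in NPCs, 3.76-fold (3.44 to 4.10) higher, with RPKM of 24.7 and 92.9. *Nid2* had 811 reads in ESCs and 848 in NPCs, a ratio of 1.02 (0.921 to 1.12), and RPKM of 38.9 and 39.5. *Nid2* was therefore the higher nidogen in ESCs and the lower one in NPCs.

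*Hspg2* (ENSMUSG00000028763.10, plus strand of chr4:137024634-137126545) encodes the perlecan core protein and has 97 exons, the most of the group. It had 374 reads in ESCs and 419 in NPCs, a ratio of 1.09 (0.944 to 1.25), and its RPKM of 6.10 and 6.63 were the lowest of the 9 genes in both libraries. The sign of the *Nid2* and *Hspg2* differences was not fixed by the data: on the log2 scale with 1 read added they were 0.02 and 0.12 with library totals, and -0.32 and -0.22 when the libraries were scaled by the median of ratios over genes, which lowers every log2 ratio by 0.34.

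*Sparc* (ENSMUSG00000018593.6, minus strand of chr11:55208002-55233582) had the highest RPKM of the group in both libraries. It had 1151 reads in ESCs and 13828 in NPCs, 11.7-fold (11.0 to 12.4) higher, and RPKM of 80.0 and 933. It stood at place 336 of the protein-coding genes in ESCs and at place 6 in NPCs.

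Reads were piled unevenly along the exons, and for several genes the most used start was the same in both libraries. For 6 genes the start most used in NPCs is shown, for the collagen, laminin and nidogen genes whose read there lay wholly in coding sequence, as the mm9 bases of the transcript strand from the first base of the read, with the first 6 bases, the 5′ end of the sequenced fragment, in capitals. Each of these 48-base sequences occurred once in the genome.
*Col4a1*, exon 49, chr8:11206240-11206287: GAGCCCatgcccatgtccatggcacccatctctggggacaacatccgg
*Lama1*, exon 43, chr17:68147921-68147968: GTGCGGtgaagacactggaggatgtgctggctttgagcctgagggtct
*Lamb1*, exon 31, chr12:32012510-32012557: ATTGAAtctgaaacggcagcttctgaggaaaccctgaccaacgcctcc
*Lamc1*, exon 20, chr1:155080620-155080667: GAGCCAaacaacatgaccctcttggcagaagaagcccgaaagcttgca
*Nid1*, exon 19, chr13:13601744-13601791: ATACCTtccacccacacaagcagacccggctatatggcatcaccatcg
*Nid2*, exon 4, chr14:20587585-20587632: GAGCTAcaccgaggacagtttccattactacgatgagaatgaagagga

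The *Lamc1* start was the most used in both libraries, with 45 reads in ESCs and 391 in NPCs, 3.58% and 3.10% of the reads of the gene. The *Nid1* start also led in both, with 19 and 116 reads, and so did the *Nid2* start, with 22 and 15. The *Lama1* start led in NPCs with 525 reads, 5.07% of the gene's reads, and was second to another start in ESCs with 12. The *Lamb1* start led in NPCs with 248 reads and ranked 10 in ESCs with 7. The *Col4a1* start led in NPCs with 437 reads and ranked 4 in ESCs with 16. No single start held more than 5.30% of the exonic reads of any of the 9 genes.

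The higher reads of NPCs were spread over many starts. In *Col4a1*, 5.47% of the exonic positions were the start of a read in ESCs and 25.8% in NPCs, with 2.29 and 11.8 reads per used start. In *Sparc* the shares were 9.74% and 24.5%, with 3.51 and 16.8 reads per used start. In *Hspg2* they were 1.89% and 1.94%, and in *Nid2* 7.51% and 7.43%. When each start was counted once, the log2 ratio of the summed exonic reads went from 3.62 to 1.79, and all 7 higher genes remained more than 2-fold higher, from 1.13 on the log2 scale for *Nid1* to 2.89 for *Lama1*.

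The difference was also counted exon by exon. Every exon with at least 10 reads in both libraries together was more than 2-fold higher in NPCs in *Col4a1* (38 of 38 exons), *Col4a2* (37 of 37), *Lama1* (62 of 62), *Lamb1* (33 of 33), *Lamc1* (28 of 28) and *Sparc* (10 of 10). In *Nid1* this held for 19 of 20 exons. In *Nid2* it held for 0 of 21, with log2 ratios of the exons between -0.94 and 0.68. In *Hspg2*, 2 of 30 exons were more than 2-fold higher and 3 more than 2-fold lower, at few reads per exon. The filter pools both libraries, so an exon without ESC reads can pass it on NPC reads alone and must then be called higher. Exon 30 of *Col4a2* (0 and 170) and exon 10 of *Col4a1* (0 and 25) are examples. The genes were chosen with their ratios known, so their exons are not separate tests of the difference. No share over the exons of all genes is given.

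The exon with the most NPC reads was the last exon in *Col4a1* (exon 52 of 52, 307 reads in ESCs and 7181 in NPCs), *Col4a2* (exon 48 of 48, 182 and 5403), *Lamc1* (exon 28 of 28, 436 and 4573), *Nid1* (exon 20 of 20, 160 and 769) and *Sparc* (exon 10 of 10, 660 and 7863). Those last exons are also the longest stretches of their genes, from 1114 to 2808 nt. In *Lama1* the most reads fell on exon 43 of 63, of 183 nt, with 19 in ESCs and 854 in NPCs. In *Lamb1* they fell on exon 24 of 33 (38 and 1001), in *Nid2* on exon 4 of 21 (202 and 179) and in *Hspg2* on exon 7 of 97 (18 and 22). The order of exons by reads per kb was alike in the libraries, with a Spearman coefficient between ESCs and NPCs of 0.95 over the 10 exons of *Sparc*, 0.93 over the 52 of *Col4a1*, and down to 0.57 over the 97 of *Hspg2*; exons of both libraries share their base composition and mappability. The collagens have many short exons, 9 of *Col4a1* and 6 of *Col4a2* being shorter than the 48 nt of a read. Reads were aligned without splicing, so a read across a junction was lost or cut. Exons without an NPC read numbered 3 in *Col4a1*, all shorter than a read, 4 in *Col4a2*, of which 2 were shorter, and 10 in *Hspg2*, of which 1 was shorter.

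Position along the transcript differed between the genes. The share of reads that started upstream of the midpoint of the longest coding transcript, the 5′ share, was 46.3% (45.1 to 47.5) over the 9 genes in ESCs and 37.2% (36.9 to 37.5) in NPCs. Over all protein-coding genes with introns it was 55.5% and 53.3%. The collagens lay lowest: *Col4a1* had 26.1% (23.2 to 29.2) in ESCs and 25.2% (24.6 to 25.8) in NPCs, and *Col4a2* 22.2% (17.7 to 27.1) and 21.6% (20.7 to 22.4). At *Nid2*, 58.5% of reads in ESCs and 57.6% in NPCs started there, and at *Hspg2* 58.2% and 56.9%.

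Within most genes the share was alike in both libraries. The intervals of ESCs and NPCs did not overlap for *Lamb1*, with 51.3% (47.1 to 55.5) in ESCs and 41.6% (40.6 to 42.6) in NPCs, and for *Nid1*, with 55.6% (51.7 to 59.6) and 47.1% (45.1 to 49.1). *Lama1* had 48.3% (43.4 to 53.2) and 43.6% (42.6 to 44.6), *Lamc1* 52.3% and 51.4%, and *Sparc* 40.9% and 41.6%. *Col4a1* and *Col4a2* together held 18.6% of the reads in this count in ESCs and 37.6% in NPCs, so the genes with the lowest 5′ shares weighed more in the NPC sum. Over starts where a whole read lies within 1 exon, the 5′ share of the 9 genes was 50.0% in ESCs and 41.0% in NPCs.

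**Figure D2:**
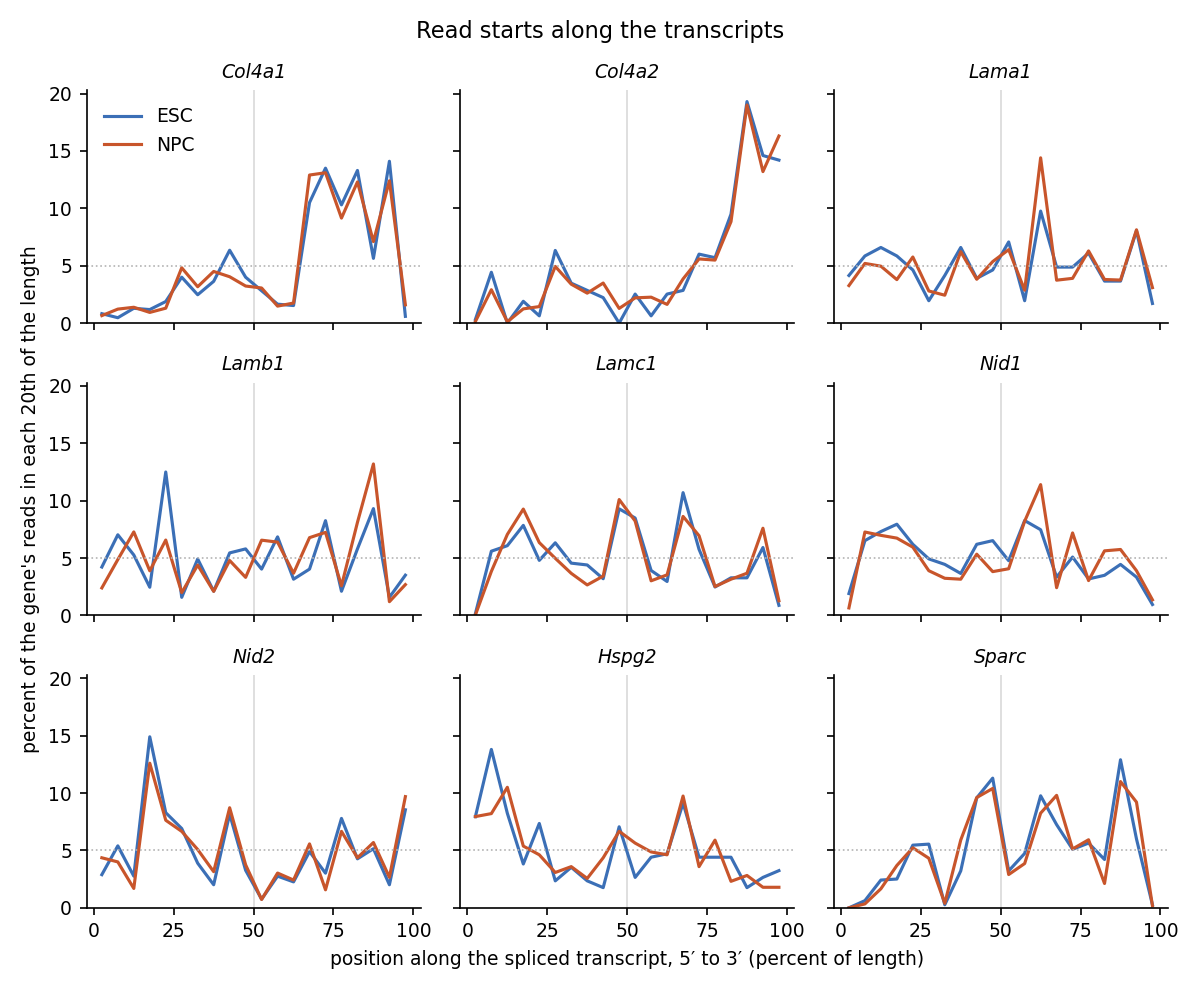
Percent of each gene's reads that start in each of 20 equal parts of the spliced coding transcript, from 5′ to 3′, in ESCs (blue) and NPCs (orange). The dotted line is an even spread and the grey line the middle; the lines of the libraries follow each other, with the collagens low upstream of the middle and a *Lama1* peak of 14.4% in NPCs and 9.76% in ESCs.

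The balance between chains was compared per kb of exon. *Col4a1* exceeded *Col4a2* 2.59-fold (2.27 to 2.95) in ESCs and 2.10-fold (2.05 to 2.15) in NPCs. With each start counted once the ratios were 1.89 (1.58 to 2.26) and 1.28 (1.19 to 1.38). Among the laminin chains, *Lama1* stood to *Lamc1* as 0.295 (0.264 to 0.330) in ESCs and 0.712 (0.694 to 0.731) in NPCs, so the alpha-1 chain was scarce beside gamma-1 in ESCs and nearer to it in NPCs. *Lamb1* to *Lamc1* was 0.389 (0.352 to 0.429) in ESCs and 0.685 (0.667 to 0.703) in NPCs. *Lama1* to *Lamb1* was 0.761 (0.670 to 0.863) and 1.04 (1.01 to 1.07). *Nid1* to *Nid2* was 0.636 (0.573 to 0.707) in ESCs and 2.35 (2.18 to 2.55) in NPCs.

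Both comparisons with *Lamb1* turned on the length taken for it. Its joined exons, 9917 nt, include those of transcripts annotated with a retained intron, while its longest coding transcript is 5784 nt and held 584 of its 585 ESC reads and 10298 of its 10367 NPC reads. Over that transcript *Lamb1* to *Lamc1* was 0.613 (0.555 to 0.677) in ESCs and 1.08 (1.05 to 1.10) in NPCs, and *Lama1* to *Lamb1* was 0.444 (0.391 to 0.504) and 0.611 (0.594 to 0.627), so in NPCs each fell on the other side of 1. A length is the same in both libraries and cancels in the change of a pair between them. The rise of *Lama1* and of *Lamb1* relative to *Lamc1* from ESCs to NPCs was thus bound to appear with either length.

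**Figure D3:**
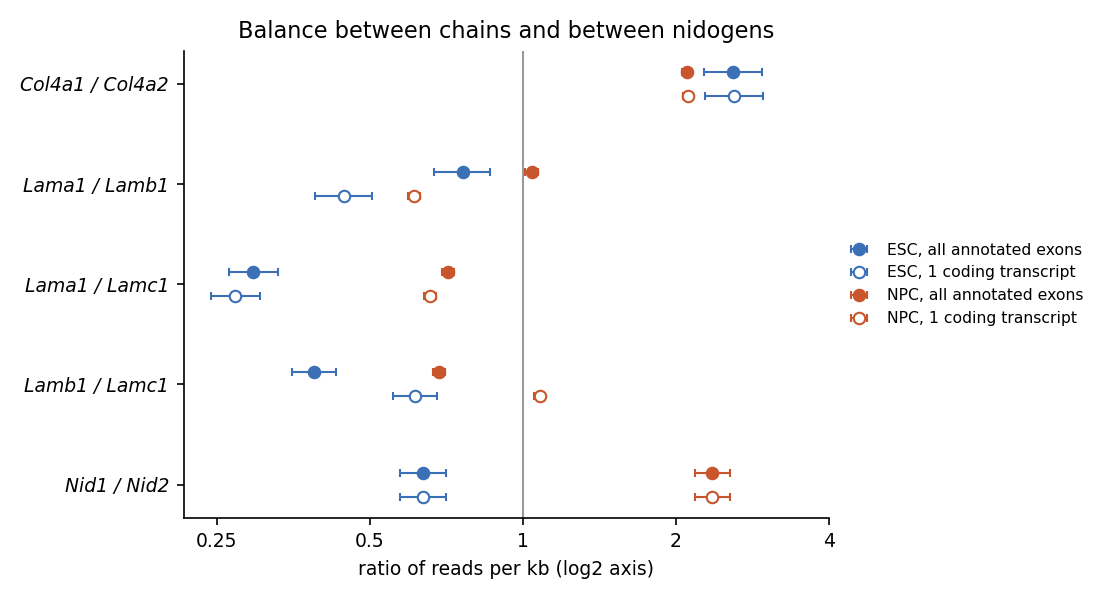
Ratio of reads per kb between members of a pair in ESCs (blue) and NPCs (orange), on a log2 axis, over all annotated exons (filled) and over 1 coding transcript per gene (open), with exact conditional binomial 95% intervals. *Nid1* to *Nid2* crosses 1 from 0.636 to 2.35, and the pairs with *Lamb1* shift with the length used.

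Introns of the genes gave reads too. Whether these came from unspliced RNA, excised introns or other transcripts was not tested. Counting reads that touch an intron and no exon of any gene on the strand, the 9 genes had 886 in ESCs and 5734 in NPCs, a 6.28-fold (5.85 to 6.75) difference, against 1.11-fold over the introns of all protein-coding genes. By gene, the intronic ratio was 20.3 (15.7 to 26.7) for *Col4a1*, 17.2 (13.7 to 21.9) for *Lama1* and 18.7 (13.8 to 25.8) for *Lamb1*, whose intervals overlap those of the exonic ratios. It was below the exonic ratio, with intervals apart, for *Col4a2* at 11.7 (8.96 to 15.6), for *Lamc1* at 7.17 (5.86 to 8.85) and for *Sparc* at 6.87 (4.51 to 10.9). For *Nid1* it was 2.96 (2.09 to 4.26). All 7 genes that were higher over exons were thus more than 2-fold higher over introns.

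*Nid2* had 151 intronic reads in ESCs and 113 in NPCs, a ratio of 0.727 (0.564 to 0.933), and *Hspg2* had 315 and 269, a ratio of 0.829 (0.702 to 0.979). The exons of the 9 genes were 77.6 times (72.3 to 83.3) as dense in reads as their introns in ESCs and 152 times (148 to 156) in NPCs, against 70.9 and 77.7 over all protein-coding genes. With each start counted once the order turned, to 47.3 in ESCs and 28.5 in NPCs. Over all reads, each gene but *Col4a2* (109 and 269) changed less than the sum, and *Lamb1* fell from 71.4 to 65.9. *Hspg2* and *Nid2* held 315 and 151 of the 886 intronic reads in ESCs. In NPCs they held 269 and 113 of 5734, so they weighed less in the NPC sum. *Hspg2* stood apart with a ratio of 7.24 (6.22 to 8.44) in ESCs and 9.50 (8.13 to 11.1) in NPCs, since 45.7% and 39.1% of its reads lay in introns. At the other end, *Sparc* had 304 (205 to 471) and 515 (444 to 601), with 2.13% and 1.26% of its reads in introns. Reads that lay across an exon and intron border, with at least 6 bases on each side, numbered 41 in ESCs and 316 in NPCs.

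**Figure D4:**
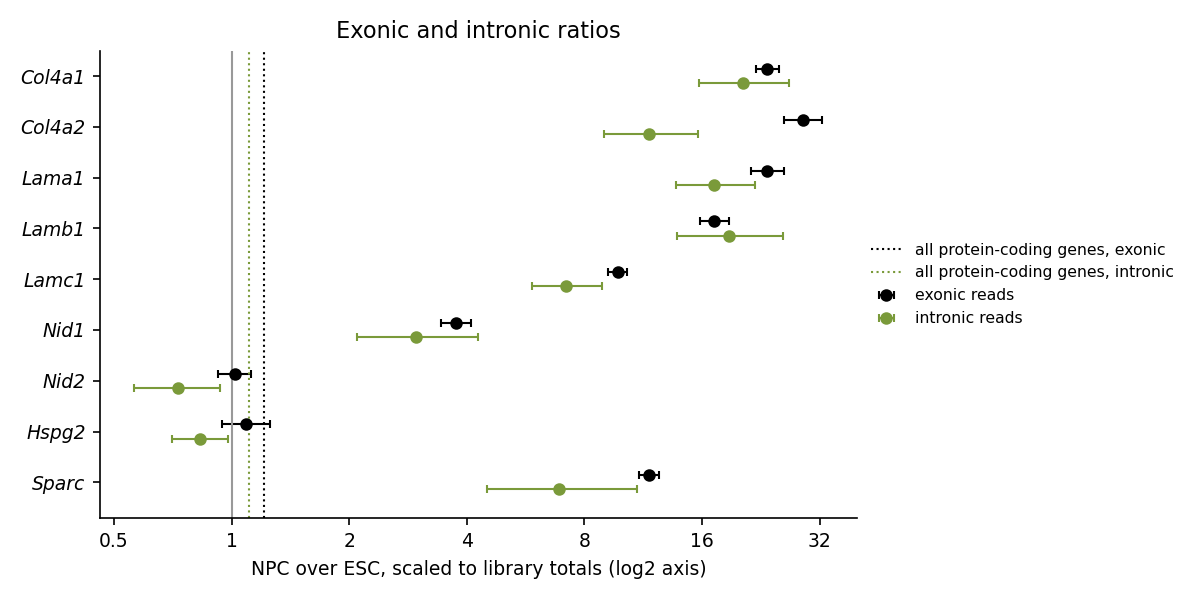
Ratio of NPC to ESC reads, scaled to the library totals, on a log2 axis, for exonic (black) and intronic (green) reads of each gene, with exact conditional binomial 95% intervals. Dotted lines are the ratios over all protein-coding genes, 1.21 for exons and 1.11 for introns; *Nid2* and *Hspg2* lie near them and the other 7 genes to their right.

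Most intronic reads were scattered. In *Col4a1*, intron 1 of 44859 nt held 341 of the NPC reads at 267 different starts, and in *Lamc1*, intron 1 of 69433 nt held 330 at 258 starts. The 20 intronic bases with the most NPC read starts held 28 NPC reads in *Col4a1*, 24 in *Lama1* and 17 in *Lamc1*, each with 0 in ESCs, and from 4 to 9 in *Col4a2*, *Nid1*, *Nid2* and *Sparc*. The stacks of *Lamb1* and *Hspg2* are described further, chosen after their values were seen, since they held the largest shares of the intronic reads of a gene (introns are numbered between the joined exons). In intron 26 of *Lamb1*, 10 ESC and 132 NPC reads began within 20 bases, 22.2% and 15.3% of the intronic reads of the gene. In intron 1 of *Hspg2*, 59 ESC and 15 NPC reads began within 20 bases, 18.7% and 5.58%. The most used starts of the stacks are shown as above, since they carry these values.
*Lamb1*, intron 26, plus strand of chr12:32007983-32008030: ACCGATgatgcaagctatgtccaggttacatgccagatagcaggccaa
*Hspg2*, intron 1, plus strand of chr4:137030185-137030232: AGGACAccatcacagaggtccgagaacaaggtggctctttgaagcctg

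The *Lamb1* start had 2 ESC and 101 NPC reads, and the *Hspg2* start 59 and 14. Without the stack the intronic ratio of *Lamb1* was 20.3 (14.5 to 29.4), and that of *Hspg2* was 0.963 (0.807 to 1.15), so the lower intronic reads of *Hspg2* in NPCs rested on this stack.

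Other genes of the pathway were counted in lists written with earlier results known. Of 64 such genes, 54 had at least 10 reads; 21 were more than 2-fold higher in NPCs and 6 more than 2-fold lower, with a median log2 ratio of 0.66, against 24.6% higher, 12.8% lower and a median of 0.34 over all genes tested. The count of lower genes was 10 with the median of ratios. That scaling lowers the log2 ratio of every gene by 0.34, so the 12.8% does not apply to this count. The shares of all genes with library totals apply to each list that follows. Enzymes and chaperones of collagen folding moved most: 8 of 10 were more than 2-fold higher, with a median of 2.16. *Serpinh1*, the collagen chaperone HSP47, had 350 reads in ESCs and 4298 in NPCs, 11.9-fold (10.7 to 13.3) higher. *P4hb*, the beta subunit of prolyl 4-hydroxylase, had 1928 and 6668, 3.36-fold (3.19 to 3.53) higher. *Plod2*, a lysyl hydroxylase, had 386 and 2242, 5.64-fold (5.06 to 6.30) higher. *Glt25d1*, a collagen galactosyltransferase, was within 2-fold, with 679 and 1076.

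The other laminin chains did not follow. Of 7 further laminin chains with at least 10 reads, 0 were more than 2-fold higher and 1, *Lamc3* with 8 reads in ESCs and 2 in NPCs, was more than 2-fold lower, and the median was -0.52. *Lama5*, the alpha-5 chain, had 783 reads in ESCs and 562 in NPCs, a ratio of 0.697 (0.624 to 0.778), *Lamb2* had 176 and 281, and *Lama3* 42 and 26. Of the other collagen IV chains, only *Col4a5* had at least 10 reads, with 13 and 37, and was 2.76-fold (1.44 to 5.66) higher. *Col4a3*, *Col4a4* and *Col4a6* had 0 reads in ESCs and at most 2 in NPCs. *Lama1*, *Lamb1* and *Lamc1* were chosen with their own ratios known, and the list holds only the chains that were left.

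Of 14 other basement membrane and pericellular proteins, 5 were more than 2-fold higher and 2 lower, the latter near the 12.8% of all genes, with a median of 0.29, below the 0.34 of all genes. *Tinagl1*, a matricellular protein, had 59 reads in ESCs and 698 in NPCs, 11.5-fold (8.80 to 15.2) higher. *Fn1*, fibronectin, had 1815 and 938, a ratio of 0.502 (0.463 to 0.543), *Col18a1*, a proteoglycan-like collagen, 1007 and 720, and *Agrn*, the proteoglycan agrin, 754 and 680. *Fbln2*, fibulin-2, had 164 and 41, a ratio of 0.243 (0.168 to 0.344). The remaining genes past 2-fold, outside the naming rule, were *Ntn4* (1 and 19), *Egflam* (10 and 37), *Ntn1* (16 and 46) and *Fras1* (14 and 31), which were higher, and *Fbln1* (250 and 103), which was lower.

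Among 12 receptors, 3 were more than 2-fold higher and 2 lower, with a median of 0.55, so the share that was higher lay near the 24.6% of all genes. *Itgb1*, the beta-1 integrin common to most laminin and collagen receptors, had 647 reads in ESCs and 2114 in NPCs, 3.17-fold (2.90 to 3.47) higher, and *Itgav* had 241 and 852, 3.43-fold (2.97 to 3.98) higher. *Itga6*, the laminin-binding alpha-6 integrin, had 1487 and 1599, *Itga3* 538 and 649, and *Dag1*, dystroglycan, 392 and 723, all within 2-fold. *Bcam*, a receptor of the laminin alpha-5 chain, had 321 and 147, a ratio of 0.445 (0.363 to 0.542). Outside the naming rule, *Itga7* (15 and 41) was the third higher one and *Itgb4* (34 and 15) the other lower one. Of 10 matrix proteases and inhibitors, 4 were higher, against 24.6% of all genes, and 1 lower, against 12.8%, with a median of 0.70. *Plat*, tissue plasminogen activator, had 8 and 623, 75.6-fold (38.1 to 176) higher, *Timp2* 22 and 176, *Timp3* 69 and 242, *Bmp1*, a procollagen protease, 127 and 265, and *Mmp2*, a gelatinase, 160 and 35.

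The labels of both libraries were set beside markers of the cell types the cultures could hold. Of 20 extraembryonic endoderm markers with at least 10 reads, 19 were more than 2-fold higher in NPCs, *Amn* (7 and 12) being the other, with a median log2 ratio of 4.73 and a summed level of 152 RPM (reads per 1000000 placed reads) in ESCs and 2262 RPM in NPCs. These included the transcription factors *Gata4* (61 and 1179 reads), *Gata6* (8 and 459), *Sox17* (8 and 383) and *Sox7* (4 and 169). *Pth1r* (21 and 1056), *Lrp2* (310 and 1939), *Cubn* (80 and 529) and *Afp* (1 and 141) were higher too. The list was not divided by kind of extraembryonic endoderm. *Plat* was counted in this list as well as among the proteases. The filter of 10 reads pools both libraries, so a gene almost without ESC reads can pass it on NPC reads alone. It must then be called higher, as *Ttr* (0 and 37) and *Afp* were. The shares of all genes rest on the same filter. Of the neural progenitor list, *Pax6* had 1 read in ESCs and 12 in the library labelled NPC, *Zic1* 1 and 22, *Pax3* 0 and 13, *Sox3* 0 and 5, *Hes5* 1 and 2, and *Fabp7* 0 and 2. The other members, which many cells share, had more reads: *Nes* 66 and 121, a ratio of 1.78 (1.31 to 2.44), *Ncam1* 100 and 104, *Msi1* 99 and 60, and *Notch1* 481 and 203. The 10 of 11 neural genes found in the annotation summed to 175 RPM in ESCs and 124 in NPCs, with 3 of 7 higher (*Pax6*, *Zic1*, *Pax3*) and 1 lower (*Notch1*). Those 3 higher genes passed the filter on NPC reads alone, so their calls were set by it. Of 11 pluripotency genes 8 were more than 2-fold lower, against 12.8% of all genes, with 2256 RPM in ESCs and 646 in NPCs. When each start was counted once 4 were, a count to which the 12.8% does not apply.

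Fibroblast markers, for the feeder layer and for stroma, summed to 161 RPM in ESCs and 230 in NPCs, with 2 of 9 higher (*Col1a2*, *Twist1*), 1 lower (*Thy1*) and *Lum* at 0 in both. *Vim* held 469 of their 689 reads in ESCs and 706 of 1011 in NPCs. Endothelial markers summed to 130 and 69.8, with 3 of 6 higher (*Cdh5*, *Esam*, *Kdr*), 2 lower (*Pecam1*, *Vwf*) and *Emcn* at 0 in both. *Pecam1* held 475 of the 556 endothelial reads in ESCs and 100 of 307 in NPCs, so the lower sum rested on it. *Cdh5* had 0 reads in ESCs and 74 in NPCs, *Esam* 6 and 55, and *Vwf* 38 and 6. The NPC library thus held more reads of the 21 endoderm markers than of the 10 neural ones, 2262 RPM against 124. These sums are not corrected for the number of genes or for exon length. The endoderm sum in NPCs includes 1394 reads of *Pdgfra* and 623 of *Plat*, which also mark other cells. The part of these cell types in the reads of the 9 genes was not tested.

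**Figure D5:**
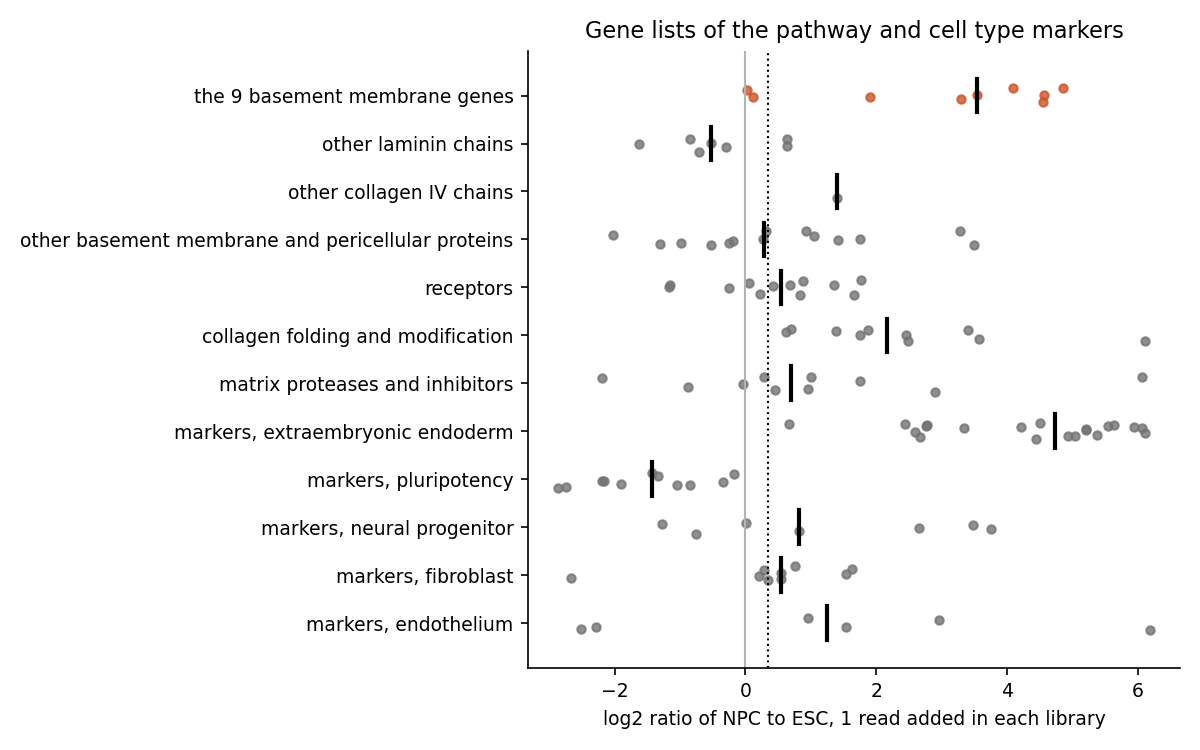
Log2 ratio of NPC to ESC, with 1 read added in each library, for the genes of each list with at least 10 reads (points, shifted vertically at random), with the list's median (black bar) and the median of all genes, 0.34 (dotted line). The 9 genes (orange) have a median of 3.54, extraembryonic endoderm markers of 4.73 and the other laminin chains of -0.52.

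Promoter sequences of 6 of the 9 genes (*Col4a1*, *Col4a2*, *Lamb1*, *Nid1*, *Hspg2* and *Sparc*) were read from RefSeq on GRCm38.p6, 250 bases before to 50 after the start. The GATA words AGATAA or AGATAG and TGATAA or TGATAG were found on either strand in 0 of the 6, and in 29.8% of 32851 promoters of that length. CCAAT was in 4 of the 6 (*Col4a1*, *Col4a2*, *Lamb1* and *Nid1*) and in 37.4% of all, and the GC box word GGGCGG in 5 of the 6, all but *Sparc*, and in 35.7% of all. These are matches of letters in a short window and describe no binding. *Col4a1* and *Col4a2* start from a shared region, so their windows can share bases and a match may be counted for both.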

How the data were processed

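The authors depleted polyadenylated RNA in 3 rounds and ribosomal RNA in 1, sequenced 50 nt reads on SOLiD, aligned them to mm9 with Bowtie (seed of 45 nt, up to 2 mismatches, uniqueness not enforced), removed mitochondrial, ribosomal and repeat reads, and deposited 1 line per placed read with chromosome, start, end, strand and 48 letters of sequence. There were 4271306 lines for ESCs and 4399729 for NPCs, and 1 read is worth 0.234 and 0.227 RPM. The deposited values are positions, not counts, so counts were made here.

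The 9 genes and all gene lists were chosen with earlier results of these data known. Reads on the gene strand that overlap exons of GENCODE M1 by at least 1 base were counted. Of the reads of the 9 genes, 91.5% in ESCs and 93.7% in NPCs had a sequence that occurs once in mm9. Opposite-strand reads on exons were 3 in ESCs and 5 in NPCs. Library scaling used all placed reads. With 1 library per group no test was run. A call of "more than 2-fold" is by size on ratios with 1 read added, over genes with at least 10 reads in both libraries together. In every list a gene can thus pass on the reads of 1 library alone, which then sets its call. Of a pathway list, the 4 genes with most reads and the highest and lowest ratio among genes with at least 100 reads in 1 library are named. The members are named too, and, outside the rule, genes of small counts. The rule was not used for the marker lists. The markers named are illustrative and, like the genes of small counts, were chosen after their values were seen. *Dab2* has more than 1 annotation entry, and the longer was used; *Sox1* was not matched. The values of 1 gene that the naming rule picks are not reported here. Counting and intervals were tested on simulated data, with the counts for the intervals drawn as Poisson. That does not test the intervals for reads piled on shared starts. Software was SAMtools 1.23.1, matplotlib 3.10.9, pysam 0.24.0, and numba 0.67.0 with pandas 2.3.3 and SciPy 1.17.1 in Python 3.11.15 (NumPy 2.4.6).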

Additional observations from a re-analysis of the deposited data

Results flagged for a closer look

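Reads on the strand opposite to the genes lie outside the counts above. Over the whole bodies of the 9 genes, exons and introns together, there were 28 such reads in ESCs and 20 in NPCs, more than the 3 reads that a count of 0 allows. By gene they ranged from 0 in *Lama1* to 8 in *Hspg2* in ESCs, and from 0 in *Col4a1*, *Lamb1* and *Nid1* to 8 in *Col4a2* in NPCs. They did not follow the exonic reads of the sense strand, which were 12.3-fold higher in NPCs.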

How the results depend on the processing

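The 7 of 9 genes named above were more than 2-fold higher in NPCs under each of 6 alternatives to the exonic count and scaling; *Nid2* ranged from -0.32 to 0.06 and *Hspg2* from -0.22 to 0.16 (log2). Counting each start once moved the summed exonic log2 ratio from 3.62 to 1.79, its median to 1.61, the intronic one from 2.65 to 2.52, the exon to intron density ratio to 47.3 in ESCs and 28.5 in NPCs, so that it was then lower in NPCs, and the 5′ share to 47.5% and 43.6%. It gave chain ratios in ESCs and NPCs of 1.89 and 1.28 (*Col4a1* to *Col4a2*), 0.920 and 1.40 (*Lama1* to *Lamb1*), 0.392 and 0.949 (*Lama1* to *Lamc1*) and 0.779 and 1.78 (*Nid1* to *Nid2*). A used start cannot be counted again, so this alternative lowers deep genes by construction. Scaling without the 10 largest read clusters, 10.4% of the ESC and 3.76% of the NPC reads, gave 3.52 and 3.44, and the median of ratios 3.28 and 3.20. Under the latter 10 pathway genes, not 6, were more than 2-fold lower, with the log2 ratio of every gene lowered by 0.34. Starts within 1 exon gave 5′ shares of 50.0% and 41.0%, and chain ratios in ESCs and NPCs of 3.03 and 2.35 (*Col4a1* to *Col4a2*), 0.458 and 0.622 (*Lama1* to *Lamb1*) and 0.685 and 1.22 (*Lamb1* to *Lamc1*), and in NPCs 0.756 (*Lama1* to *Lamc1*) and 2.17 (*Nid1* to *Nid2*). One coding transcript gave 0.444 and 0.611 (*Lama1* to *Lamb1*), 0.613 and 1.08 (*Lamb1* to *Lamc1*) and, in NPCs, 0.657 (*Lama1* to *Lamc1*). Unique sequences gave in NPCs a 5′ share of 36.4% and chain ratios of 0.750 (*Lama1* to *Lamc1*), 0.706 (*Lamb1* to *Lamc1*) and 2.14 (*Nid1* to *Nid2*). Beyond the construction of start counting and the exon lengths used, the cause was not tested. Leaving out the intronic stacks, chosen after seeing the data, gave a summed intronic log2 ratio of 2.71. The alternative of intron length without repeats was not run, since the genome has 0 masked bases. No paired analysis was possible because each group has 1 library. Depth limits *Hspg2*, with 374 and 419 reads over 97 exons.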

Other observations

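Reads beyond the annotated 3′ ends were few. In the 5000 bases downstream of the genes, on the same strand, *Lamc1* had 2 reads in ESCs and 12 in NPCs, *Lamb1* 0 and 8, *Sparc* 1 and 8, *Lama1* 2 and 5, *Col4a2* 2 and 4, and *Col4a1* 0 and 2. *Nid2* had 5 and 3, *Hspg2* 5 and 1, and *Nid1* 0 in both libraries.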
